A study of Rattus norvegicus with 17 samples.

Results

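Tumor-bearing rats that had received no chemotherapy were compared with healthy rats by RNA sequencing of the gastrocnemius, a large and mostly fast-twitch calf muscle. The comparison used 10 of the 17 libraries of the study: 5 healthy libraries (libraries 1 to 5) and 5 tumor libraries (libraries 6 to 10), all from rats on the control diet. The 7 other libraries came from tumor-bearing rats given chemotherapy, and entered the statistical model only to help estimate the spread between samples. Libraries were chosen by their sample titles alone. The labels used here do not name the tumor, the strain, the sex or the age of the rats, and they do not say that each library came from a separate animal, so p-values measure the spread between these samples. Every gene with a name in the deposited count table was considered: 32495 named entries, of which 11856 had enough counts to be tested.

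Skeletal muscle is a store of protein that is drawn on during illness, and loss of muscle in a tumor-bearing host is called cachexia. The best-known routes run from cytokines of the interleukin-6 family through the receptor subunit gp130 and the kinases JAK to the transcription factor STAT3, and from FoxO factors to atrogin-1 and MuRF1, ubiquitin ligases that mark muscle proteins for degradation. Muscle is also a mixture of fiber types and of smaller populations, among them endothelial cells, fibroblasts, macrophages and the satellite cells that repair fibers. In bulk tissue, fewer cells of a type and less RNA per cell cannot be told apart.

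The libraries carried the transcripts of fast skeletal muscle in both groups. Acta1, the skeletal muscle actin, ranged from 53754 to 95550 CPM (counts scaled to a common library size by the TMM method) in the healthy libraries and from 26140 to 60456 CPM in the tumor libraries. Myh4, the myosin heavy chain of the fastest fibers, ranged from 59659 to 120225 CPM in healthy and from 91696 to 102554 CPM in tumor muscle. The 13 protein genes of the mitochondrial genome were listed at 0 in all 17 libraries. Myh1, Myh2, Cd36 and Pecam1 were not analysed here.

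Healthy libraries differed among themselves in composition. Totals over named genes ran from 3894210 to 15719080 counts in healthy and from 5422118 to 10857477 counts in tumor libraries. Small noncoding RNA genes held 2.22% ± 1.07 (SD, n = 5) of healthy and 1.32% ± 0.586 (SD, n = 5) of tumor counts, with an exact two-sided permutation p of 0.143 (adjusted over 4 measures, 0.190). The first principal component of the 10 libraries, which carried 53.2% of the variance of the 1000 most variable genes, ordered them nearly as that share did. Healthy libraries 4, 3 and 1 stood at one end, with shares of 3.60%, 2.51% and 2.62%. Tumor libraries 6, 9 and 7 stood at the other end, with 0.813%, 0.863% and 1.05%, together with healthy library 2, at 0.806%. Healthy library 5 and tumor libraries 8 and 10 lay between them. The alignment names in the file end in MB for healthy libraries 1 to 4 and in VM for healthy library 5 and all 5 tumor libraries. The meaning of this suffix is not given, and apart from healthy library 5 it cannot be told apart from the group.

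**Figure D1:**
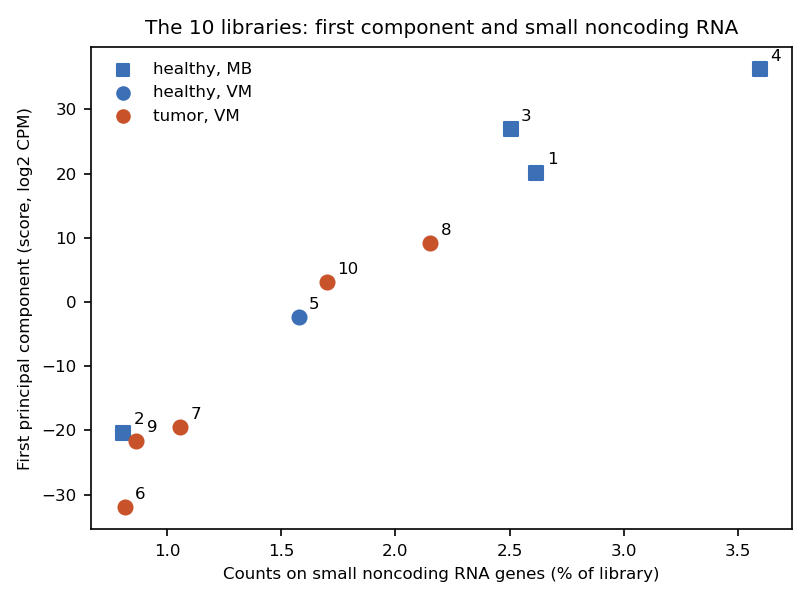
First principal component of log2 CPM (y axis) against the percent of counts on small noncoding RNA genes (x axis) for the 10 libraries, numbered as in the text. Color marks the group and shape the suffix of the alignment name. Healthy libraries 1, 3 and 4 lie at the upper right, and healthy library 2 lies among tumor libraries 6, 7 and 9.

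With this spread, no gene reached an adjusted p below 0.05 in edgeR's quasi-likelihood test with Benjamini-Hochberg adjustment (0% of 11856 in each direction). The smallest adjusted p was 0.211, shared by 255 genes, so every gene below has an adjusted p of 0.211 or more in that test. At an unadjusted p below 0.05, 1053 genes (8.88%) were higher and 1081 (9.12%) lower in tumor muscle, against 593 expected by chance in both directions together. In 52 genes (0.439%) every tumor library lay above every healthy one, and in 66 (0.557%) every tumor library lay below. With TMM scaling the signs were balanced, with a fold change above 1 in 51% and below 1 in 49% of genes. That balance depends on the scaling: the median log2 fold change of all genes was 0.01 with TMM and 0.133 with total counts. Limma-voom called 0 genes, with 1582 higher and 1185 lower at an unadjusted p below 0.05. DESeq2's Wald test called 17 genes higher and 23 lower, with Socs3 at the smallest adjusted p, 0.00941.

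One library decided the number of calls. When healthy library 2 was left out, 245 genes were called higher and 259 lower in edgeR. When healthy library 5 was left out, the calls were Tnnt1, higher with an adjusted p of 0.0417, and Col4a5, lower with an adjusted p of 0.0464. Leaving out any 1 of the other 8 libraries gave 0 calls in each direction. In the opposite sense, leaving out healthy libraries 1, 3 and 4 together brought the genes at an unadjusted p below 0.05 to 1.46% higher and 0.816% lower. Only healthy libraries 2 and 5 then remained in that group, and a test with fewer libraries finds differences less readily. Values are therefore given library by library.

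**Figure D2:**
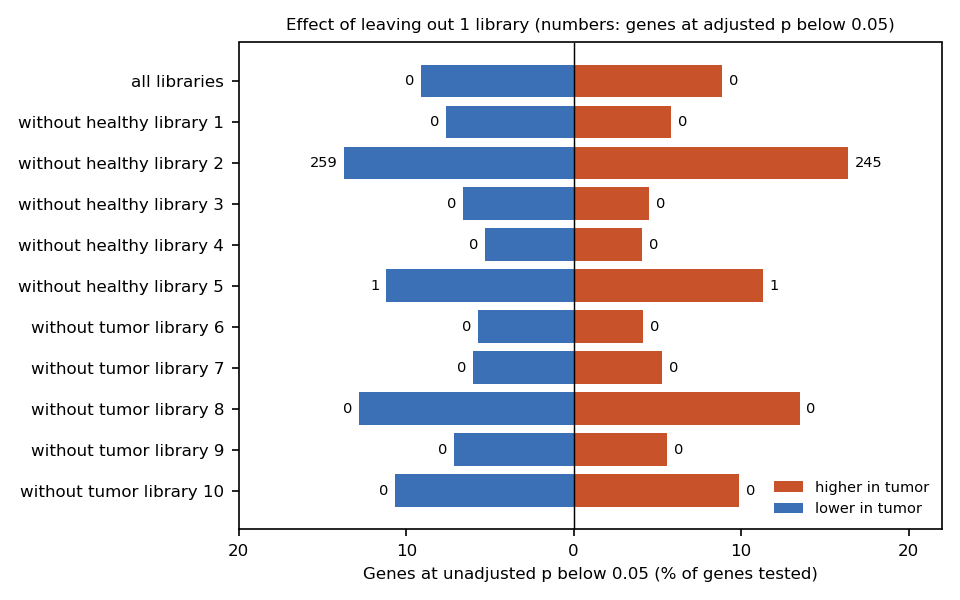
Percent of tested genes at an unadjusted p below 0.05 in edgeR, higher in tumor to the right and lower to the left, with all libraries and with each of the 10 libraries left out. The number at each bar is the count of genes at an adjusted p below 0.05, which is 245 and 259 without healthy library 2 and at most 1 in every other bar.

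**Figure D3:**
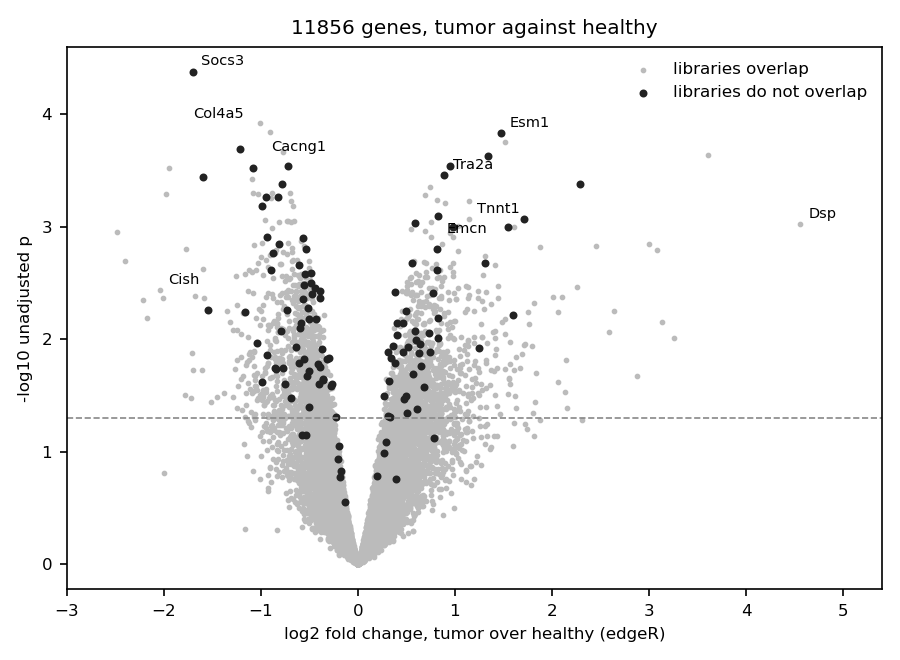
The log2 fold change of tumor over healthy (x axis) against the negative log10 of the unadjusted p (y axis) for 11856 genes, each a point. Dark points are genes whose 5 tumor and 5 healthy libraries do not overlap, and the dashed line marks an unadjusted 0.05 in edgeR's test. Socs3 is the highest point on the left, and Esm1 stands on the right.

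The gene with the smallest p was Socs3, an inhibitor that is itself switched on by STAT3 and that blocks signaling from gp130. Its level in healthy libraries 1 to 5 was 9.26, 8.51, 13.5, 13.03 and 6.88 CPM, and in tumor libraries 6 to 10 it was 1.87, 2.10, 4.27, 3.65 and 3.98 CPM. All 5 tumor libraries lay below all 5 healthy ones, and healthy library 5 was the lowest of its group. The log2 fold change was -1.70 ± 0.32 (SE), with an unadjusted p of 4.17e-05. Against healthy library 5 alone, among VM libraries, it was -1.11. In the chemotherapy samples, Socs3 was at 8.16 CPM in the MB sample and at 2.42 to 4.56 CPM in the VM samples, so the MB sample was the higher there as well.

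Cish, a related inhibitor that is a classic target of STAT5, showed the largest difference in the family. It was at 81.8, 43.7, 46.9, 30.5 and 9.33 CPM in healthy libraries 1 to 5 and at 3.39, 10.3, 21.0, 3.49 and 11.8 CPM in tumor libraries 6 to 10. The log2 fold change was -2.04 ± 0.61 (SE, unadjusted p = 0.00367). Healthy library 5 sat inside the tumor range, and among VM libraries the estimate was 0.13, of opposite sign. STAT dimers are known to bind the palindrome TTCNNNGAA, and the promoter windows of Cish and Socs3 were searched for it. The palindrome reads alike on both strands, so each place was counted once. It occurred in 8.87% of 33469 rat promoter windows of 300 bases (250 before to 50 after the start of the gene, RefSeq, build GRCr8). Only 2 windows, 0.00598%, held it 4 times, and Cish was one of them, at 241, 230, 136 and 119 bases before the start. The window of Socs3 held it 0 times. The window of Cish, chr8:116850719-116851018 on the plus strand, is shown with the 4 matches in capitals:

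Cish: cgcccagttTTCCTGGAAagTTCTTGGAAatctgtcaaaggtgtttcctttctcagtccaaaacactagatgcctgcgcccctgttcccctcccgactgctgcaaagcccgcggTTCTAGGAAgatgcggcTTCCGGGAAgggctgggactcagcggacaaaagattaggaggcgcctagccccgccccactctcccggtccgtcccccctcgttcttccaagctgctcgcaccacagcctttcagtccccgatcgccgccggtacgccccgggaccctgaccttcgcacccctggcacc

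A match is a description of the sequence, and binding was not measured.

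Upstream members of the pathway differed in both directions. Of 45 genes listed for the IL-6 family and STAT3, 44 were in the table and 35 were tested. Among these 35, 15 were higher and 20 lower, 1 higher and 7 lower at an unadjusted p below 0.05, with a median log2 fold change of -0.09 against 0.01 over all genes tested. The ligands were scarce: Il6 had at most 1 count in any of the 10 libraries and was not tested, nor were Lif, Osm, Clcf1 and Il11. The 2 tested ligands overlapped between groups. Cntf averaged 2.15 CPM in healthy and 2.64 CPM in tumor muscle, and Ctf1 4.91 and 4.50 CPM. Il6st, which encodes gp130, averaged 152 ± 8.85 CPM in healthy and 163 ± 26.4 CPM in tumor muscle (SD, n = 5 each), and Lifr, its partner for leukemia inhibitory factor, 116 ± 11.7 and 130 ± 16.9 CPM. Stat3 itself averaged 104 ± 6.90 and 101 ± 17.3 CPM, and the groups overlapped in all 3 genes. Cntfr, the receptor chain for ciliary neurotrophic factor, was at 29.8, 8.79, 16.2, 36.8 and 3.68 CPM in healthy and 5.43, 8.10, 13.96, 7.46 and 8.48 CPM in tumor libraries (log2 fold change -1.14 ± 0.46, SE, adjusted p = 0.247). Healthy library 5 was the lowest of all 10 for Cntfr, and among VM libraries the estimate was 1.25, of opposite sign. The 7 genes lower at an unadjusted p below 0.05 were 4 of the 9 listed targets, the inhibitors Socs3 and Cish, and Cntfr. Of the targets 8 were lower, with a median of -0.49, while none of the 8 tested transducers, among them JAK kinases and STAT factors, passed that level. The median of the whole list was 0.07 among VM libraries.

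Among those targets, Myc, a growth-promoting transcription factor, was at 5.29, 11.3, 12.6, 6.35 and 4.42 CPM in healthy and 4.24, 1.91, 4.94, 2.86 and 3.81 CPM in tumor muscle, a log2 fold change of -1.16 ± 0.34 (SE). Healthy library 5 again lay within the tumor range. Cebpb, a transcription factor of the acute-phase response, had a log2 fold change of -0.67 and Il4r, the interleukin-4 receptor chain, -0.49. Socs5, another member of the inhibitor family, lay the other way: 16.5 to 23.6 CPM in healthy and 24.5 to 27.2 CPM in tumor libraries, with no overlap and a log2 fold change of 0.38 ± 0.15 (SE, adjusted p = 0.242).

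**Figure D4:**
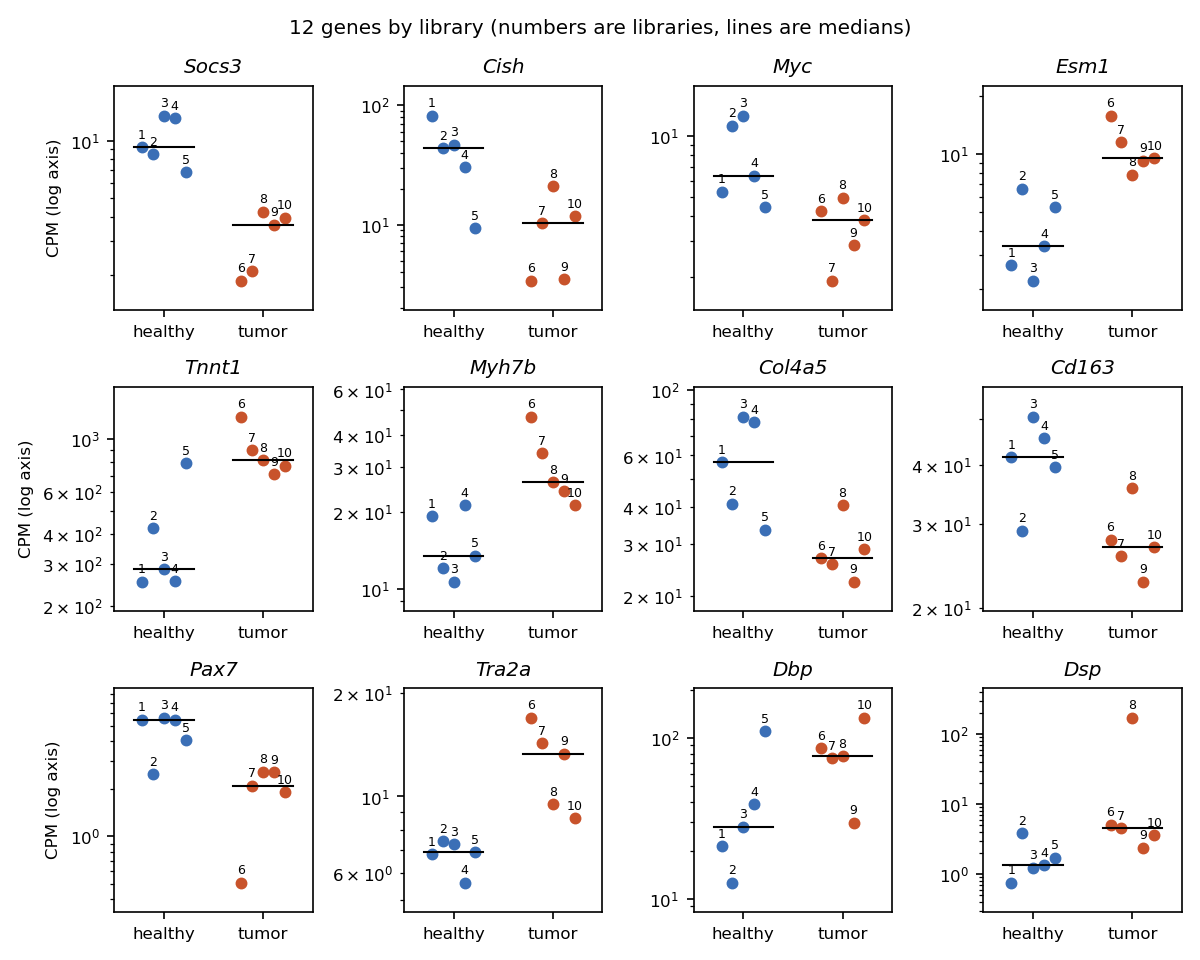
CPM of 12 genes by library, on log axes whose range differs between panels. Points are single libraries with their numbers, and horizontal lines are group medians. Socs3, Esm1, Myh7b and Tra2a show no overlap between groups, healthy library 5 lies with the tumor libraries for Cish, Tnnt1 and Dbp, and Dsp is high in tumor library 8 alone.

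Genes of slow fibers were higher on average in tumor muscle. Of 15 tested genes on the slow-fiber contractile list, 14 were higher and 8 of these (53.3%) had an unadjusted p below 0.05, with a median log2 fold change of 0.55. Tnnt1, the slow troponin T that ties tropomyosin to calcium sensing, was at 252, 424, 285, 254 and 789 CPM in healthy libraries 1 to 5 and at 1236, 894, 815, 711 and 772 CPM in tumor libraries 6 to 10. Healthy library 5 was the only healthy library inside the tumor range. The log2 fold change was 1.14 ± 0.29 (SE), and without healthy library 5 it was 1.54.

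Other slow-fiber genes followed, with different spreads. Atp2a2, which pumps calcium back into the store of slow fibers, was at 1077, 1116, 801, 939 and 1552 CPM in healthy and 2222, 1973, 1952, 1245 and 1870 CPM in tumor muscle (log2 fold change 0.76 ± 0.19, SE). Myh7, the slow myosin heavy chain, was at 4711, 3598, 2435, 5163 and 6758 CPM and 6312, 7076, 9392, 3352 and 6986 CPM (0.55 ± 0.26, SE, adjusted p = 0.276). Myh7b, a related slow myosin, was the list's only member without overlap: 19.3, 12.1, 10.7, 21.2 and 13.5 CPM in healthy and 47.0, 33.8, 26.1, 24.1 and 21.3 CPM in tumor libraries (0.98 ± 0.25, SE). Its estimate was no smaller among VM libraries, at 1.18, whereas that of Tnnt1 was 0.17 there. In the chemotherapy samples Myh7b was at 15.9 CPM in the MB sample, inside the VM range of 13.5 to 30 CPM. The level of the whole list (the mean over members of log2 CPM, centered for each gene over the 10 libraries) was -0.75 to -0.44 in healthy libraries 1 to 4, 0.66 in healthy library 5 and -0.01 to 0.70 in the tumor libraries. Among VM libraries the list's median was -0.13.

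Fast-fiber genes lay the other way, by less. On the fast-fiber contractile list, 10 of 13 tested genes were lower and 5 (38.5%) had an unadjusted p below 0.05, with a median of -0.18. Among VM libraries the direction turned, with 9 of 13 higher, 0 at an unadjusted p below 0.05 and a median of 0.14. Myoz1, a Z-disc protein of fast fibers, was at 5605, 3161, 5819, 5650 and 3401 CPM in healthy and 2134, 2329, 3471, 2801 and 3746 CPM in tumor muscle (log2 fold change -0.71 ± 0.21, SE). Mylpf, the fast regulatory light chain, averaged 18351 ± 6063 and 12047 ± 2911 CPM, and Pvalb, the calcium buffer parvalbumin of fast fibers, 4589 ± 1495 and 3256 ± 764 CPM (SD, n = 5 each). Among VM libraries Mylpf had a log2 fold change of 0.21 and Pvalb of 0.58. Myh4 did not share the direction of the list, averaging 87145 ± 27263 CPM in healthy and 96972 ± 4285 CPM in tumor muscle. Healthy libraries 3 and 4 were the lowest for Myh4, at 59659 and 60784 CPM, and the other 8 libraries ran from 87215 CPM upward.

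Excitation-contraction coupling, by which a nerve impulse releases calcium inside the fiber, included Cacng1, whose libraries did not overlap between groups. Of 28 listed genes, 10 were higher and 18 lower, 6 of the latter at an unadjusted p below 0.05 (21.4%). Among VM libraries 16 were higher and 12 lower, with a median of 0.10. Scaled by total counts, 15 were higher and 13 lower, with a median of 0.03. Cacng1, the gamma subunit of the muscle calcium channel, was at 470, 405, 657, 645 and 383 CPM in healthy and 247, 268, 363, 319 and 354 CPM in tumor libraries, a log2 fold change of -0.72 ± 0.16 (SE). Cacna1s, the pore and voltage sensor of the same channel, averaged 2586 ± 634 and 1539 ± 524 CPM (SD, n = 5 each). At the neuromuscular junction, Dok7, which drives clustering of the acetylcholine receptor, averaged 29.5 ± 6.66 and 20.1 ± 3.07 CPM. The estimate for Dok7 was of opposite sign among VM libraries. Chrna1, the receptor subunit that climbs after loss of the nerve, averaged 5.09 ± 1.25 and 3.84 ± 1.02 CPM.

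Abundant genes of rapid energy supply were lower on average. Of 28 tested genes of glycolysis and glycogen, 19 were lower and 10 (35.7%) had an unadjusted p below 0.05, against 2 higher. Among VM libraries 19 of the 28 were higher, with a median of 0.04. Aldoa, the muscle aldolase, was at 39240, 21441, 38371, 35404 and 21907 CPM in healthy libraries 1 to 5 and at 12527, 14028, 24021, 15653 and 23626 CPM in tumor libraries 6 to 10. Ckm, the muscle creatine kinase that rebuilds ATP, was at 61085, 29615, 56570, 63036 and 31398 CPM and at 17032, 20590, 38247, 26165 and 39281 CPM. In both genes healthy libraries 1, 3 and 4 were high, and healthy libraries 2 and 5 lay inside the tumor range. The log2 fold changes were -0.80 ± 0.23 and -0.77 ± 0.26 (SE), and -0.29 and -0.15 among VM libraries. Healthy libraries 1, 3 and 4 also had the largest shares of counts on their 20 most abundant genes. That share was 40.9% ± 3.28 in healthy against 36.3% ± 2.46 in tumor libraries (SD, n = 5 each, exact two-sided permutation p = 0.0397, adjusted over 4 measures 0.159), and its part in these differences was not tested.

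Ampd3, an AMP deaminase known from wasting muscle, went the other way at 23.6, 16.2, 10.03, 14.05 and 18.7 CPM in healthy and 35.5, 29.6, 37.6, 16.4 and 29.1 CPM in tumor libraries. Tumor library 9 was the only tumor library within the healthy range. Its log2 fold change was 0.86 ± 0.26 (SE), and 0.67 among VM libraries. Of 34 tested nuclear genes of respiratory complex I, 26 were lower, 10 of them (29.4%) at an unadjusted p below 0.05, and 8 were higher, 3 of them at that level. Without healthy libraries 1, 3 and 4 the list was 15 higher and 19 lower, 0 at that level, and scaled by total counts it had 7 higher and 2 lower at that level. Ndufs8, a core subunit, averaged 246 ± 84.3 CPM in healthy and 164 ± 38.9 CPM in tumor muscle (SD, n = 5 each). The list of fatty acid uptake and oxidation divided into 18 higher and 15 lower, with a median of 0.04. Of its 13 oxidation enzymes 10 were higher, 3 at an unadjusted p below 0.05, and Acadm, the medium-chain dehydrogenase, had a log2 fold change of 0.70. All 5 uptake genes were higher, while 7 of 9 regulators and 5 of 6 shuttle genes were lower. Ppargc1a, the coactivator of mitochondrial biogenesis, averaged 22.4 ± 5.82 and 27.0 ± 7.11 CPM, and Pdk4, which turns muscle from glucose to fat, 109 ± 34.5 and 90.8 ± 44.1 CPM, both with overlap.

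All 5 tested chains of type IV collagen, the network of the basement membrane around each fiber and capillary, were lower, each at an unadjusted p below 0.05, with a median of -0.77. Col4a5 was at 57.0, 41.2, 81.2, 77.9 and 33.6 CPM in healthy libraries 1 to 5 and at 27.0, 25.6, 40.7, 22.4 and 28.9 CPM in tumor libraries 6 to 10 (log2 fold change -1.01 ± 0.21, SE). Col4a1 was at 465, 378, 611, 604 and 356 CPM and at 189, 225, 413, 197 and 276 CPM (-0.89 ± 0.22, SE), and Col4a2, its partner in the common heterotrimer, at 225, 167, 246, 264 and 160 CPM and at 109, 132, 227, 99.9 and 148 CPM (-0.57 ± 0.22, SE, adjusted p = 0.242). Tumor library 8 was the highest tumor library for all 3 genes and lay within the healthy range. Col4a3 and Col4a4 had log2 fold changes of -0.77 and -0.73. All 5 stayed negative among VM libraries, with a median of -0.21. Without healthy library 2 edgeR called 4 of them, among 259 genes called lower and 245 called higher of 11995 tested. All 5 were also lower with the suffix as a term (median -0.43) and without healthy libraries 1, 3 and 4 (median -0.37). In each of those fits 0 of them had an unadjusted p below 0.05.

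Col4a1 and Col4a2 are transcribed away from each other from a common stretch. Their promoter windows share 176 bases, which are in capitals in the Col4a1 window, chr16:84885347-84885646 on the plus strand of GRCr8, while the Col4a2 window runs on the minus strand from 84885471 to 84885770:

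Col4a1: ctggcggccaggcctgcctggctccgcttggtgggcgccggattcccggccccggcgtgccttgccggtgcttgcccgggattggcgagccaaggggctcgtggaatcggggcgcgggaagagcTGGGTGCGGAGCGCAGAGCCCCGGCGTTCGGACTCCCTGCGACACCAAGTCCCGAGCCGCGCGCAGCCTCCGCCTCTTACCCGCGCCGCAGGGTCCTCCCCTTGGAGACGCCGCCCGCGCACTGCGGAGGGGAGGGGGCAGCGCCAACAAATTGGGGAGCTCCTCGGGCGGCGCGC

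Genes of other matrix proteins were lower in part. Of 17 tested laminins and basement membrane proteoglycans 12 were lower, 5 at an unadjusted p below 0.05 (29.4%), with a median of -0.17. That median was 0.16 with the small noncoding RNA percent as a term, with 11 of 17 higher, and 0.11 without healthy libraries 1, 3 and 4. Lamc1, a laminin chain common to most laminins, was at 573, 451, 650, 664 and 417 CPM in healthy and 256, 326, 540, 287 and 402 CPM in tumor libraries, and Nid1, which links laminin to type IV collagen, averaged 282 ± 111 and 171 ± 56.0 CPM (SD, n = 5 each). Col3a1, a fibrillar collagen of connective tissue, was at 2210, 1756, 3505, 4208 and 1798 CPM and at 692, 948, 1874, 1120 and 1696 CPM, a log2 fold change of -1.09 ± 0.31 (SE). Eln, the elastin gene, had a log2 fold change of -0.97, and all 10 tested genes of the elastic fiber were lower. The list of other collagens and elastic fiber had 29 of 41 genes lower, with a median of -0.26, and 26 of 41 higher with a median of 0.11 under the same term. Of 19 markers of fibroblasts and fibro-adipogenic cells 15 were lower, 5 at an unadjusted p below 0.05 (26.3%), with a median of -0.28. The fibroblast median was 0.04 both with the small noncoding RNA term and without healthy libraries 1, 3 and 4. The level of the fibroblast list was 0.45 and 0.49 in healthy libraries 3 and 4, and 0.38 and 0.25 in tumor libraries 8 and 10. It was -0.50 to -0.42 in tumor libraries 6, 7 and 9 and -0.34 in healthy library 2.

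**Figure D5:**
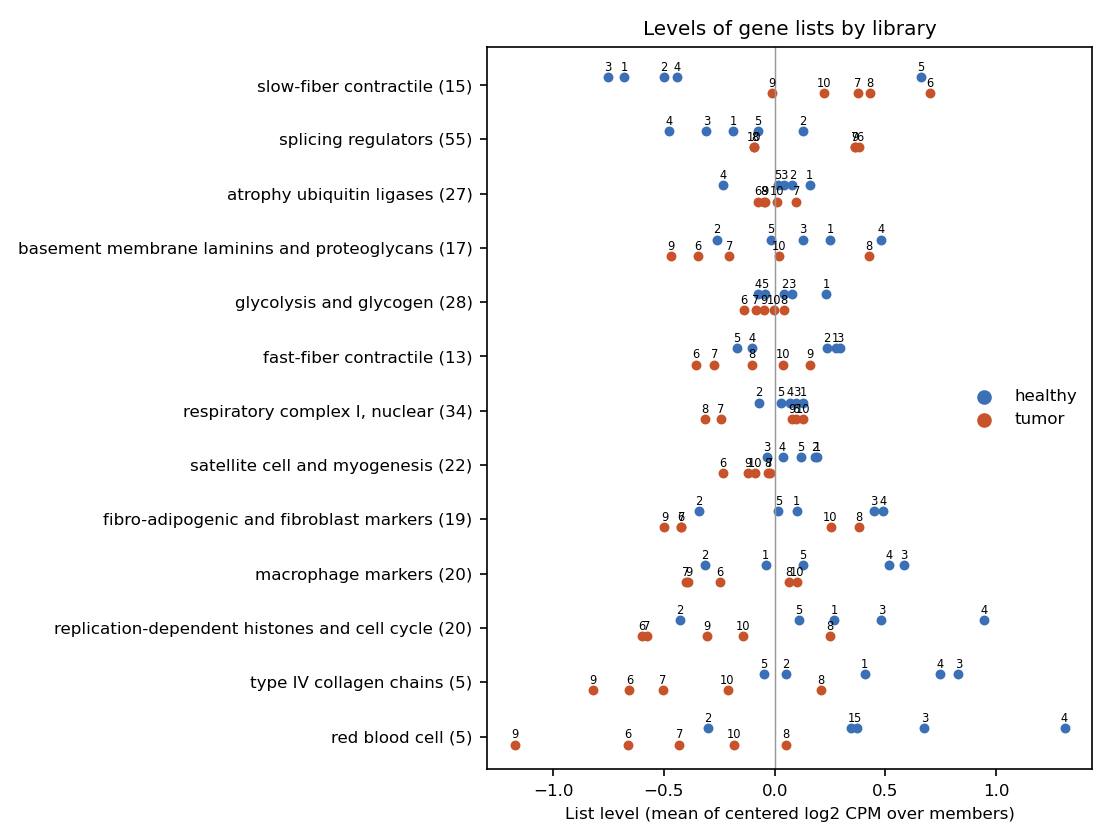
Level of 13 gene lists (mean over members of log2 CPM, centered for each gene over the 10 libraries) in each library, with the number of tested members in parentheses. Points carry library numbers, healthy in blue above and tumor in orange below. The slow-fiber list separates healthy libraries 1 to 4 from the rest. The fibroblast, macrophage and red blood cell lists have tumor libraries 6, 7 and 9 on the left and healthy libraries 3 and 4 on the right. Healthy library 2 also lies on the left in these lists, and tumor library 8 lies on the right for fibroblasts.

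Macrophage markers were lower on average, 18 of 20, with 8 (40%) at an unadjusted p below 0.05 and a median of -0.45. With the small noncoding RNA term 13 of 20 were lower, 0 at that level, with a median of -0.12, and among VM libraries the median was -0.35. Cd163, the hemoglobin scavenger receptor of resident macrophages, was at 41.6, 29.1, 50.5, 45.6 and 39.5 CPM in healthy libraries 1 to 5 and at 27.8, 25.7, 35.7, 22.7 and 26.8 CPM in tumor libraries 6 to 10 (log2 fold change -0.58 ± 0.22, SE, adjusted p = 0.242). Itgam and Fcgr1a, an integrin and an antibody receptor of myeloid cells, had log2 fold changes of -0.87 and -1.08. Siglec5, a sialic acid receptor of myeloid cells, averaged 9.59 ± 2.91 and 4.78 ± 1.23 CPM (SD, n = 5 each). All 7 tested class II antigen presentation genes were lower, 1 of them at an unadjusted p below 0.05, with a median of -0.47. That gene was Ciita, their master regulator, at 5.78 ± 1.88 and 2.92 ± 1.47 CPM. With the small noncoding RNA term 5 of the 7 were lower, 0 at that level, with a median of -0.10. Among VM libraries all 7 were lower, with a median of -0.55.

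Endothelial genes divided. Esm1, a proteoglycan secreted by sprouting endothelium, was at 2.64, 6.59, 2.20, 3.31 and 5.28 CPM in healthy libraries 1 to 5 and at 15.8, 11.5, 7.79, 9.21 and 9.51 CPM in tumor libraries 6 to 10. Every tumor library lay above every healthy one, and the log2 fold change was 1.47 ± 0.31 (SE, unadjusted p = 0.000147), the smallest p among higher genes with an assigned symbol and a mean of at least 5 CPM. Emcn, a sialomucin of capillary and venous endothelium, showed no overlap, at 9.82, 12.9, 11.8, 7.77 and 11.1 CPM against 23.8, 14.01, 15.95, 25.1 and 15.2 CPM (0.83 ± 0.21, SE). Both estimates stayed positive among VM libraries, at 1.02 and 0.76. In the chemotherapy samples, Esm1 was at 5.13 CPM in the MB sample and at 5.70 to 13.7 CPM in the VM samples. Emcn was at 13.5 CPM in that MB sample and at 14.6 to 24.3 CPM in the VM samples, so the MB sample was the lower for both. Of 30 tested genes of the VEGF pathway and sprouting endothelium, 14 were higher and 16 lower, with a median of -0.03. Esm1 was one of the 12 tip cell genes among them, of which 5 were higher and 7 lower. At an unadjusted p below 0.05 in edgeR, 1 of these 12 was higher and 2 lower, and their median was -0.21.

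Ligands of the vessel wall were higher in part. Angpt1, which stabilizes vessels through the receptor Tie2, was at 4.34, 11.3, 8.50, 4.79 and 13.01 CPM in healthy and 28.0, 19.5, 10.2, 22.1 and 11.6 CPM in tumor libraries (log2 fold change 1.14 ± 0.34, SE), and Angpt2, its antagonist, averaged 4.44 ± 2.03 and 6.88 ± 1.46 CPM (SD, n = 5 each). Vegfa, the main growth factor of endothelium, averaged 105 ± 21.9 and 135 ± 44.5 CPM, and its receptor Kdr 44.5 ± 8.34 and 42.7 ± 6.81 CPM. Cxcr4, a chemokine receptor of tip cells and leukocytes, was at 11.9, 11.3, 13.95, 13.98 and 9.82 CPM in healthy and 6.62, 8.20, 10.1, 5.399 and 7.26 CPM in tumor muscle, with tumor library 8 alone inside the healthy range. Of 17 tested general endothelial markers 7 were higher and 10 lower, 1 in each direction at an unadjusted p below 0.05, with a median of -0.05. Emcn was the general marker that was higher at that level.

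The list with the most members at an unadjusted p below 0.05 was that of splicing regulators, proteins that choose which exons enter a messenger RNA. Of 55 tested, 48 were higher, 25 of them (45.5%) at an unadjusted p below 0.05, and 7 were lower, 1 of them at that level, with a median log2 fold change of 0.36. Among SR proteins 14 of 15 were higher, among hnRNP proteins 12 of 14, and among RBM proteins 10 of 10. Tra2a, an SR-like activator, was at 6.80, 7.41, 7.26, 5.605 and 6.88 CPM in healthy and 16.97, 14.3, 9.50, 13.3 and 8.65 CPM in tumor libraries, without overlap (0.89 ± 0.21, SE). Hnrnpm, an hnRNP protein, was at 18.7, 41.5, 18.2, 16.1 and 32.4 CPM and at 65.3, 52.1, 34.5, 64.0 and 30.1 CPM (0.98 ± 0.28, SE), with healthy libraries 2 and 5 and tumor libraries 8 and 10 overlapping.

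The level of the splicing regulators moved with the small noncoding RNA share of the libraries. It was -0.48, -0.31 and -0.19 in healthy libraries 4, 3 and 1, which had the largest shares, and -0.09 in both tumor libraries 8 and 10. It was 0.36 to 0.38 in tumor libraries 6, 7 and 9 and 0.13 in healthy library 2, which had the smallest shares. With that share as a term in the model, the median of the list was 0.11 and 6 members were higher at an unadjusted p below 0.05. Among VM libraries the median was 0.32. Tra2a kept a log2 fold change of 0.57 with the term and 0.87 among VM libraries. Its chemotherapy MB sample, at 9.87 CPM, lay below the chemotherapy VM samples, at 10.46 to 16.97 CPM.

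The circadian clock list, which follows the daily cycle of transcription, placed healthy library 5 with the tumor libraries. The clock runs on the activator proteins CLOCK and BMAL1, the latter encoded by Arntl, which bind E-boxes such as CACGTG, and on repressors that close the loop. Dbp, an output factor, was at 21.3, 12.6, 28.1 and 38.7 CPM in healthy libraries 1 to 4 and 111 CPM in healthy library 5, and at 86.4, 74.6, 77.4, 29.9 and 134 CPM in tumor libraries 6 to 10. Ciart, a repressor, was at 0.567, 0, 0.573 and 1.01 CPM in healthy libraries 1 to 4 and 10.2 CPM in healthy library 5, and at 6.96, 4.48, 5.70, 2.06 and 6.05 CPM in tumor libraries. In both genes tumor library 9 was the lowest of its group. Nfil3, which opposes Dbp, was the reverse: 51.8, 50.2, 40.7, 39.3 and 10.9 CPM in healthy and 14.9, 10.1, 17.8, 30.5 and 14.5 CPM in tumor libraries.

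Arntl was at 43.4, 52.99, 44.7, 27.6 and 11.2 CPM in healthy and 11.7, 14.2, 21.0, 39.2 and 15.05 CPM in tumor libraries, and Npas2, which can stand in for CLOCK, at 15.9, 13.7, 18.9, 18.1 and 6.63 CPM and at 2.71, 9.63, 6.74, 11.4 and 4.67 CPM. Healthy library 5 was the lowest healthy library and tumor library 9 the highest tumor library in both. The log2 fold changes were 0.91 ± 0.52 for Dbp, -1.13 ± 0.34 for Nfil3, -0.82 ± 0.44 for Arntl and -1.05 ± 0.34 for Npas2 (SE). Among VM libraries they were -0.46, 0.68, 0.85 and 0.11, each of opposite sign. In all, 17 of 24 tested clock genes were higher and 4 (16.7%) had an unadjusted p below 0.05, against 7 lower with 2 (8.33%). The labels used here give no hour of sampling.

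The promoters of Ciart and Arntl are printed because the genes lay in opposite directions across the same libraries. CACGTG, also a palindrome and counted once per place, occurred in 6.42% of promoter windows and 3 or more times in 0.0568%. Ciart held it 3 times, at 93, 35 and 21 bases before the start. Of the other clock genes searched, Tef, an output factor, held it once, and Dbp, Per3 and Nr1d2 held none. TNGGTCA, a short form of the element read by the REV-ERB repressors and ROR activators, was searched on both strands and occurred in 11.1% of windows. Arntl held it once, at 16 bases before the start, and neither Nfil3 nor Npas2 held it. The Ciart window is chr2:186112197-186112496 on the minus strand and the Arntl window, listed as Bmal1, chr1:176766078-176766377 on the plus strand, with matches in capitals:

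Ciart: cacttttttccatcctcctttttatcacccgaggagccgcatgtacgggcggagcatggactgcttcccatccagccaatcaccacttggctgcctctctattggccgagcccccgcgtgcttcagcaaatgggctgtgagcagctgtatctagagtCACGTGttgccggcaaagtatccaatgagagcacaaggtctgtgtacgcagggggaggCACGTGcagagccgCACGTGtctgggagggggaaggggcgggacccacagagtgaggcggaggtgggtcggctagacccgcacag

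Arntl: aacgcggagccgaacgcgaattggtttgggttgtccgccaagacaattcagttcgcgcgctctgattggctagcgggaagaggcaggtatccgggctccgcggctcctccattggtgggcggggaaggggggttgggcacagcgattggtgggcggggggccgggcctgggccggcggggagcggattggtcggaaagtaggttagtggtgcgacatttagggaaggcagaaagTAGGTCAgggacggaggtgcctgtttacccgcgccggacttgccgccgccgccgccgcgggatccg

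Genes of satellite cells and myogenesis were lower on average, 16 of 22 tested, 6 (27.3%) at an unadjusted p below 0.05, with a median of -0.23. Among VM libraries 10 were higher and 12 lower with a median of -0.06, and with the suffix as a term the median was also -0.06, with 0 at that level. Pax7, the defining factor of satellite cells, was at 5.48, 2.47, 5.64, 5.47 and 4.05 CPM in healthy libraries 1 to 5 and at 0.509, 2.10, 2.56, 2.54 and 1.903 CPM in tumor libraries 6 to 10. Only healthy library 2 reached into the tumor range. The log2 fold change was -1.26 ± 0.37 (SE), and -1.05 among VM libraries. Megf10, a receptor of quiescent satellite cells, showed no overlap, at 13.03, 17.6, 15.4, 13.4 and 8.96 CPM against 7.97, 6.67, 6.84, 6.99 and 8.30 CPM (-0.89 ± 0.26, SE). Myod1, the factor of activated satellite cells and fibers, averaged 32.9 ± 12.96 and 18.7 ± 4.35 CPM (SD, n = 5 each), with -0.05 among VM libraries.

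Fbxo32 and Trim63, the muscle ubiquitin ligases that mark wasting in many models, showed no difference beyond their spread. Fbxo32, which encodes atrogin-1, was at 290, 262, 209, 72.1 and 283 CPM in healthy and 252, 340, 170, 166 and 157 CPM in tumor libraries, a log2 fold change of -0.04 ± 0.31 (SE, adjusted p = 0.960). Trim63, which encodes MuRF1, was at 201, 237, 218, 184 and 226 CPM and 237, 217, 191, 245 and 212 CPM, a log2 fold change of 0.05 ± 0.12 (SE, adjusted p = 0.848). Trim63 varied little between libraries, whereas Fbxo32 varied more, with healthy library 4 lowest. Of the 27 tested genes on the list 14 were higher and 13 lower, 2 and 8 of them at an unadjusted p below 0.05 (7.41% and 29.6%). Scaled by total counts, 4 were higher and 1 lower at that level. Trim55, a relative of MuRF1 at the sarcomere, was at 54.2, 73.9, 52.2, 56.0 and 68.8 CPM in healthy and 96.0, 95.2, 64.1, 101 and 75.6 CPM in tumor muscle (0.51 ± 0.15, SE). Fbxo30, a ligase induced when myostatin-type signaling dominates, averaged 13.4 ± 5.09 and 19.96 ± 5.81 CPM, and Fbxo31 97.9 ± 23.6 and 65.7 ± 12.9 CPM (SD, n = 5 each).

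Regulators around these ligases showed overlap. Mstn, which encodes the growth inhibitor myostatin, averaged 24.8 ± 10.2 CPM in healthy and 33.0 ± 8.36 CPM in tumor muscle, and Igf1, a growth factor of muscle, 18.4 ± 3.72 and 20.5 ± 5.52 CPM (SD, n = 5 each). Foxo4, a member of the FoxO family, had a log2 fold change of 0.71 ± 0.29 (SE, adjusted p = 0.247). The glucocorticoid target Tsc22d3 averaged 175 ± 18.3 and 145 ± 20.2 CPM. In autophagy, Bnip3l, a mitophagy receptor, averaged 26.7 ± 6.67 and 38.7 ± 4.45 CPM (0.54 ± 0.16, SE), while 15 of 17 tested lysosomal genes were lower, 3 of them at an unadjusted p below 0.05.

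Red blood cell genes and histone genes were lower on average in tumor libraries. Of 9 red blood cell genes in the table, 5 were tested and all 5 were lower, the 4 globins at an unadjusted p below 0.05. Hbb, a beta globin, was at 347, 182, 365, 561 and 308 CPM in healthy and 146, 150, 217, 93.7 and 236 CPM in tumor libraries, and Hba-a2, an alpha globin, averaged 173 ± 74.3 and 73.0 ± 27.5 CPM (SD, n = 5 each). Globin genes are near copies of each other, so the split of counts between them is uncertain. All 10 tested replication-dependent histones were lower, 9 at an unadjusted p below 0.05, with a median of -1.001. Hist1h4m was at 54.0, 23.9, 69.4, 81.0 and 51.0 CPM in healthy and 18.8, 21.4, 44.9, 19.2 and 36.7 CPM in tumor libraries, and histone genes too are near copies. The histones stand on a list of 20 with 10 cell cycle genes, whose own median was -0.10. The red blood cell list and this joint list were highest in healthy library 4, at 1.31 and 0.95, which also had the largest small noncoding RNA share. With that share as a term the median of the red blood cell list was -0.46, from -1.06, and that of the joint list -0.13, from -0.69.

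Several genes were highest in tumor library 8, and their group means rest largely on it. Dsp, a desmosomal plaque protein of epithelia and heart, was at 172 CPM there and at 5.09, 4.57, 2.38 and 3.63 CPM in tumor libraries 6, 7, 9 and 10, against 0.756 to 3.84 CPM in the healthy libraries. Comp, a tendon matrix protein, was at 135 CPM in tumor library 8 and at 28.3, 33.5, 29.9 and 76.4 CPM in the other tumor libraries, against 3.73 to 32.3 CPM in healthy ones. Fat cell genes were high in tumor libraries 8 and 6: Scd, a fatty acid desaturase, reached 229 and 150 CPM, with 8.77 to 38.2 CPM in the other tumor libraries and 0.945 to 45.9 CPM in the healthy ones. Adipoq, the adiponectin gene, reached 53.7 and 35.0 CPM. The list levels of tumor library 8 were 1.06 for tendon, 0.87 for adipocyte and 1.20 for Schwann cell genes, where the other tumor libraries ran from -0.23 to 0.67, -0.43 to 0.42 and -0.61 to 0.12. Without it, the median of the tendon list was 0.31 rather than 0.60, and that of the adipocyte list -0.07 rather than 0.11.

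Some genes outside these groups were named for their p-value or their lack of overlap. Cep250, a centrosome linker protein, was at 4.72, 5.22, 6.402, 8.10 and 9.09 CPM in healthy libraries 1 to 5 and at 16.1, 16.8, 12.1, 11.6 and 9.34 CPM in tumor libraries 6 to 10 (log2 fold change 0.95 ± 0.22, SE). Rras, a small GTPase of vessels and adhesion, was at 9.63, 10.2, 8.98, 11.3 and 9.82 CPM and at 7.64, 5.53, 5.79, 4.76 and 5.36 CPM. Its estimate was -0.78 ± 0.18 (SE) with all libraries, -0.75 among VM libraries and -0.72 with the small noncoding RNA term. The chemotherapy MB sample was at 7.72 CPM for Rras, above the chemotherapy VM samples at 4.97 to 7.32 CPM. For Cep250 that MB sample, at 11.3 CPM, lay inside the VM range. Tmem205, a membrane protein, averaged 15.2 ± 4.14 and 8.20 ± 1.34 CPM (SD, n = 5 each), and Lvrn, an aminopeptidase, 19.6 ± 5.26 and 10.3 ± 0.877 CPM, the latter without overlap. Vtcn1, a T cell inhibitory ligand, was at 3.27 CPM in the chemotherapy MB sample and at 6.465 to 16.2 CPM in the chemotherapy VM samples. It lay higher in the tumor group without overlap, at 1.34 to 4.91 CPM in healthy and 6.03 to 10.9 CPM in tumor libraries. Nr4a2, an immediate early nuclear receptor, did so as well at a low level, 0.191 to 1.01 CPM against 1.04 to 3.23 CPM (1.60 ± 0.52, SE, adjusted p = 0.219).

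Other lists can be read against the background of 8.88% higher and 9.12% lower. Of 35 tested proteasome genes 2 were higher and 7 lower at an unadjusted p below 0.05 (5.71% and 20%), of 70 cytosolic ribosomal proteins 7 and 16 (10% and 22.9%), and of 28 endoplasmic reticulum stress genes 0 and 2 (0% and 7.14%). Of 40 genes of the myostatin, activin and TGF-beta pathway 3 were higher and 2 lower at that level (7.50% and 5%), of 30 insulin, IGF and mTOR genes 2 and 2 (6.67% each), and of 30 interferon response genes 5 and 2 (16.7% and 6.67%). Of 21 NF-kB and chemokine genes 1 and 2 reached it, Cxcl14, a chemokine of fibroblasts, with a log2 fold change of -0.74. Of 15 pericyte and smooth muscle markers none reached it in either direction (0% each) by edgeR. Scaled by total counts, 16 ribosomal proteins were higher and 3 lower at that level, and 2 proteasome genes were higher and 3 lower. Without healthy libraries 1, 3 and 4, both of these lists had 0 in each direction. Acute-phase genes such as Hp and Lcn2, and Tnf and Il1b, had at most 13 counts in any of the 10 libraries and were not tested.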

How the data were processed

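Per the labels' protocols, ribosomal RNA was removed from gastrocnemius total RNA before stranded libraries were prepared. The deposited table holds counts per gene that the authors made from trimmed reads, and the submitters' processing notes name CASAVA 1.9, FastQC 0.11.4, Trim Galore 0.4.1, Bowtie2 and TopHat2 2.0.10. Which build, annotation and counting tool were used is not given in the sources used here. The 388 entries without a name, with 0.102% to 0.373% of a library's counts, were left out. The 2 MB chemotherapy libraries differed less from each other (mean chi-square per gene 2.04, where sampling noise alone gives about 1) than any other pair within a group (at least 5.47) and were summed into 1 sample. The model therefore held 16 samples and 13 residual degrees of freedom.

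Counts were filtered with filterByExpr (minimum count 10), scaled by TMM and tested with edgeR 4.0.16 (glmQLFit and glmQLFTest, R 4.3.3) over all 11856 genes, with Benjamini-Hochberg adjustment and a threshold of 0.05. The common biological coefficient of variation was 25.4%. An SE is the log2 fold change divided by the square root of its F statistic. Principal components and list levels used log2 CPM with a prior count of 2. Library measures were compared by exact permutation tests, whose smallest p for 5 against 5 is 0.00794. Alternatives used limma 3.58.1, DESeq2 1.42.0 and sva 3.50.0, other scalings and filters, other sets of samples, and terms for the suffix and the small noncoding RNA share. The scripts were tested on simulated data.

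Named genes were the 12 higher and 12 lower with the smallest p at a mean of at least 5 CPM, the 6 highest and 6 lowest folds among such genes without overlap, in each of 50 lists the 3 members of smallest p, all members of a few lists, and some known muscle genes. Acta1 checks the tissue. The text describes a selection of them. The members and lists were chosen with earlier results of these data known. Promoter sequences came from RefSeq (GRCr8).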

Additional observations from a re-analysis of the deposited data

Results flagged for a closer look

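In these groups of 5, a highest or lowest library was noted where its gap to the nearest other library, divided by the range of the group, exceeded 0.71, which happens in about 1 in 20 groups by chance. Of 86 genes, 49 lists and 4 library measures in both groups, 278 in all, 11 (3.96%) were such cases, fewer than the 14 that chance would give, so the number of cases is no result.

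Healthy library 5 accounted for 5 of them, in chosen genes and lists that include the clock list and its members Dbp and Ciart. Its slow-fiber level was 0.66, against -0.75 to -0.44 in the other healthy libraries, and its clock level was 0.24, against -0.24 to -0.16. Its level of heat shock genes was 0.25, against -0.12 to -0.07. Dbp was at 110.7 CPM in it, against 12.6 to 38.7 CPM, and Ciart at 10.2 CPM, against 0 to 1.01 CPM. It is also the only healthy library with the VM suffix, and what these share was not tested.

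Dsp was at 172 CPM in tumor library 8, against 2.38 to 5.09 CPM in the other tumor libraries. In healthy library 3, Cxcl14 was the highest at 90.0 CPM, against 37.6 to 52.7 CPM, and Lifr the lowest at 95.4 CPM, against 116 to 123 CPM. Scd was at 45.9 CPM in healthy library 2, against 0.945 to 10.4 CPM. Myod1 was at 11.2 CPM in tumor library 6, against 19.2 to 22.4 CPM. The level of Z-disc genes was -0.03 in tumor library 10, against 0.13 to 0.19.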

How the results depend on the processing

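Genes called higher and lower numbered 17 and 23 with DESeq2's Wald test, 0 to 245 and 0 to 259 when 1 library was left out, and 1 and 0 with the small noncoding RNA share as a term, an alternative chosen after the data were seen. That 1 gene was Coch (adjusted p = 0.0229 by edgeR), named after its values were seen. It was at 0 to 1.51 CPM in healthy and 0.858 to 7.50 CPM in tumor libraries. All other settings gave 0 calls in each direction. Scaling by total counts moved the median of all genes to 0.133 and the genes at an unadjusted p below 0.05 to 16.8% higher and 4.16% lower. No paired analysis was possible because the groups share no replicate numbers.

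Medians of the 13 main lists that moved beyond their spread, and log2 fold changes that changed sign, were as follows. With total counts only they were -0.046 for glycolysis, 0.15 for atrophy ligases, -0.10 for satellite cells, 0.11 for Fbxo32, 0.081 for Kdr and 0.089 for Stat3. With 1 surrogate variable they were -0.075 for macrophages, -0.48 for red blood cells, -0.12 for satellite cells, -0.11 for histones and cycle, 0.10 for splicing, -0.11 for Ppargc1a, 0.058 for Stat3 and -0.065 for Trim63. With the suffix as a term they were -0.062 for both glycolysis and satellite cells, -0.13 for Ppargc1a, 0.10 for Pvalb, 0.011 for Stat3, 0.52 for Cntfr and -0.053 for Trim63. With the small noncoding RNA term they were 0.16 for laminins, -0.12 for macrophages, -0.46 for red blood cells, -0.12 for satellite cells, -0.13 for histones and cycle, 0.11 for splicing, 0.026 for Cntfr, -0.017 for Myh4, -0.044 for Ppargc1a, 0.056 for Stat3 and -0.085 for Trim63. Limma-voom gave 0.042 for Fbxo32.

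Without healthy libraries 1, 3 and 4 they were -0.018 for complex I, -0.37 for type IV collagen, -0.049 for histones and cycle, -0.16 for Ciart, 0.57 for Cntfr, -0.041 for Mstn, -0.10 for Myh4, 0.024 for Mylpf and -0.075 for Trim63. Among VM libraries only, with healthy library 5 as the lone healthy sample assumed to vary like the others, they were -0.13 for slow fibers, 0.14 for fast fibers, 0.038 for glycolysis, -0.21 for type IV collagen, -0.064 for satellite cells and -0.21 for histones and cycle. For genes they were 0.85 for Arntl, -1.01 for Ciart, 0.13 for Cish, 1.25 for Cntfr, -0.46 for Dbp, 0.10 for Dok7, -0.029 for Myh7, 0.21 for Mylpf, 0.68 for Nfil3, 0.11 for Npas2, -0.16 for Ppargc1a, 0.58 for Pvalb and -0.035 for Trim63. Medians of other lists also turned, within or beyond their spread. Of 49 lists, the sign of the median changed in 15 with total counts, 18 with 1 surrogate variable, 16 with the suffix term, 20 with the small noncoding RNA term, 22 without healthy libraries 1, 3 and 4 and 21 among VM libraries, and in at most 7 under any other setting. Among the main lists these include fibroblast markers (0.051 with the surrogate variable, 0.041 without libraries 1, 3 and 4, 0.044 with the small noncoding RNA term), laminins (0.086 and 0.11 in the first and second of these) and atrophy ligases (-0.047, -0.075 and -0.039 in that order, -0.038 with the suffix term and -0.032 among VM libraries).

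With 1 library left out, the values ran from -0.27 to 0.069 for Fbxo32, -0.0090 to 0.25 for Igf1, -0.0058 to 0.14 for Il6st, -0.15 to 0.025 for Kdr, -0.14 to 0.024 for Stat3 and -0.0082 to 0.089 for Trim63. The median ran from -0.12 to 0.042 for atrophy ligases and from -0.31 to -0.10 for satellite cells. Tumor minus healthy ran from 427.5 to 682.8 entries with a count, from -1.26 to -0.56 percentage points of small noncoding RNA, from -5.94 to -3.79 points in the 20 most abundant genes, and from -2615000 to 341200 total counts. In all, 47 of 2064 pairs of a named gene and an alternative changed sign, in 20 of 86 genes.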
